A study of Mus musculus with 11 samples.

Results

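The immunity-related GTPases (IRGs) form a family of interferon-inducible GTPases of the mouse. Its 7 members measured here, Irgm1, Irgm2, Igtp, Iigp1, Gm4951, Tgtp1 and Tgtp2, were taken by gene symbol from the 25827 genes of the count tables, and every member was present. UMIs (molecules counted once each) of a member were summed over the nuclei of a cell class in each library, and a level is given as UMIs per 1000000 UMIs of that class and library (CPM). The rule used gene symbols and no measured value, and it was set with earlier results of these data known.

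IRGs act in cell-autonomous defence against vacuolar pathogens. Iigp1 and the Tgtp proteins are effectors that load GTP and coat the pathogen's vacuole, whereas Irgm1, Irgm2 and Igtp are regulators that keep the effectors inactive on the cell's own membranes, and Irgm1 is also known for its part in autophagy. Gm4951 is a less studied relative encoded beside Iigp1. Transcription of the family is classically driven by interferon-gamma through gamma-activated sequences and through interferon regulatory factors such as IRF1, which bind GAAA repeats. In most cells of the nervous system the genes are nearly silent at rest and serve as a readout of interferon exposure.

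The 11 libraries were droplet-based single-nucleus RNA sequencing of Hoechst-stained, sorted nuclei from cerebellum, brainstem and cervical spinal cord of adult male mice aged 8 to 12 weeks. Il12rb2fl/fl mice carry floxed alleles of the IL-12 receptor subunit gene, and their NestinCre/+Il12rb2fl/fl littermates carry in addition a Cre recombinase under the Nestin promoter, which is active in neural precursors and so targets neurons and neuroectodermal glia but not microglia. All 4 groups thus carry the floxed alleles. Experimental autoimmune encephalomyelitis (EAE) was induced with a myelin oligodendrocyte glycoprotein peptide in complete Freund's adjuvant and pertussis toxin, and nuclei were taken on day 10, at the onset of symptoms. The groups were Il12rb2fl/fl with EAE ("fl EAE", 4 libraries), NestinCre/+Il12rb2fl/fl with EAE ("NestinCre EAE", 4 libraries), non-immunized Il12rb2fl/fl ("fl naive", 2 libraries) and non-immunized NestinCre/+Il12rb2fl/fl ("NestinCre naive", 1 library). EAE libraries 1 to 3 of both genotypes were sequenced in run 1, EAE 4 of both genotypes with fl naive 2 in run 2, and fl naive 3 with NestinCre naive 2 in run 3. The labels do not say whether each library came from a single mouse, so p-values measure the spread between these libraries.

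Libraries held 13120 to 22951 barcodes and 40761007 to 86063464 UMIs, with a median of 1910 to 3297 UMIs per nucleus, and any pair of libraries shared 47 to 140 barcodes. Of 160301 kept nuclei, all but 2928 were placed by marker genes in 20 named classes, and 11 classes had at least 10 nuclei in every EAE library and were tested. In 8 of these 11 classes all markers were more than 2-fold higher than in the remaining nuclei. The exceptions were excitatory neurons (4 of 7 markers), inhibitory neurons (6 of 8) and unipolar brush cells (4 of 6). Il12rb2 itself lay at 14.1, 17.5, 11.9 and 12.0 CPM in fl EAE 1 to 4 and at 17.1, 15.5, 14.8 and 8.09 CPM in NestinCre EAE 1 to 4, so the counts show no loss, and since these are 3' counts they do not test the excision. Libraries that stand apart were found on both sides: fl EAE 3 was higher in the family than the other fl EAE libraries in most classes, and the NestinCre EAE libraries 1 to 3 held 129, 68 and 100 infiltrating phagocytes against 8 in NestinCre EAE 4 and 0 to 11 in fl EAE. Most genotype results of the members are therefore also given with their value or call without fl EAE 3, and the immune marker levels stand beside them. That library was picked by its high family level. Leaving it out therefore widens the genotype difference by construction and gives no independent support.

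The bases just upstream of the start sites are shown for the chromosome 11 members to place the letters of the interferon elements named above. They come from RefSeq (build GRCm38.p6), 100 bases ending at the base before the start site, read 5' to 3' on the gene's strand: chr11:48871421-48871520 for Irgm1, chr11:58214877-58214976 for Irgm2, chr11:58199456-58199555 for Igtp, chr11:48992247-48992346 for Tgtp1 and chr11:49064213-49064312 for Tgtp2. Capitals mark TTCNNNGAA, the letters of a gamma-activated sequence, and a GAAA pair (GAAA, any 2 bases, GAAA), the letters of an interferon regulatory factor element.
Irgm1: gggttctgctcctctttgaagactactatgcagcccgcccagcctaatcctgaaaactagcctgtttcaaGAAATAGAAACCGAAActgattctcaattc
Irgm2: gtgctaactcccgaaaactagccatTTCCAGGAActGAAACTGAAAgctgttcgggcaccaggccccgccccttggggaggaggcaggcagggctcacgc
Igtp: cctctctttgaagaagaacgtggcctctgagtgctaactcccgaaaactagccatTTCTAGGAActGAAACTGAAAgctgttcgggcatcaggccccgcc
Tgtp1: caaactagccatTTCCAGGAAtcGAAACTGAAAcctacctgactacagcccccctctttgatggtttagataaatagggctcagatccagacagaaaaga
Tgtp2: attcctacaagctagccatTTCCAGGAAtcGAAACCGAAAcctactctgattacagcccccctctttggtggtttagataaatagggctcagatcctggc

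Irgm2, Igtp, Tgtp1 and Tgtp2 share one arrangement, a TTCNNNGAA followed 2 bases later by a GAAA pair. It lies from -75 to -55 in Irgm2, from -45 to -25 in Igtp, from -88 to -68 in Tgtp1 and from -81 to -61 in Tgtp2. Irgm1 instead holds 2 overlapping GAAA pairs from -30 to -15 and no TTCNNNGAA. Over all 32851 RefSeq promoter windows of 300 bases, searched on both strands, TTCNNNGAA was in 8.30% and the GAAA pair in 3.44%, while the joined arrangement (TTCNNNGAA, any 2 bases, GAAA pair) was in 5 windows (0.0152%), those of the 4 members and of Gm12185, another gene of the IRG list. A match is a description of letters and was not tested for binding.

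The members lie in 2 genomic clusters. Irgm1, Tgtp1, Tgtp2, Igtp and Irgm2 are on chromosome 11 and Iigp1 and Gm4951 on chromosome 18 (GRCm39, annotation of GENCODE vM39, where Gm4951 is named Iigp1c). Igtp (chr11:58089840-58098417, plus strand) overlaps Irgm2 (chr11:58090444-58113615, plus strand): 93.0% of the Igtp gene body, 7974 bases, is inside that of Irgm2, and 162 exonic bases are shared, so reads may be split between the pair and both counts are uncertain. Tgtp1 (chr11:48876154-48884999) and Tgtp2 (chr11:48948021-48955033) are near-identical copies on the minus strand. Reads that fit both may be split between them or left uncounted, so their counts and shares are uncertain as well. Irgm1 (chr11:48752795-48763164, minus strand), Iigp1 (chr18:60506680-60525706, plus strand) and Gm4951 (chr18:60345048-60381504, plus strand) have no such overlap with a member. The RefSeq start site of Irgm2 used above differs from the start of its vM39 model, on which the overlap with Igtp and the gene lengths rest.

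Without immunization, family levels were low in neurons and mature oligodendrocytes. Summed over the 7 members, the family lay at 1.57 and 2.69 CPM in granule cells of fl naive 2 and 3 and at 2.15 CPM in the NestinCre naive library, and at 2.58, 5.12 and 5.14 CPM in mature oligodendrocytes of the same libraries. Astrocytes lay at 38.9, 3.63 and 14.8 CPM and oligodendrocyte progenitor cells at 25.4, 27.4 and 9.45 CPM, from 1 to 6 UMIs a library. Microglia were the highest of the tested classes, at 116, 175 and 173 CPM. Irgm2, a regulator, made up much of that resting level with 67.5, 85.7 and 77.9 CPM, whereas the effector Iigp1 lay at 0, 6.59 and 40.7 CPM. In fl EAE libraries 1, 2 and 4 the family was as low as in naive libraries in granule cells (1.99, 2.80 and 1.19 CPM) and mature oligodendrocytes (2.24, 2.51 and 2.41 CPM), and fl EAE 3 was higher in both (14.2 and 103 CPM).

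The mean family level was higher in NestinCre EAE than in fl EAE in each of the 11 classes, and in 9 of them the libraries of the genotypes did not overlap. The exceptions were inhibitory neurons and Purkinje cells, and the sums of Purkinje and unipolar brush cells rest on 21 and 14 UMIs in NestinCre EAE. No such count is given for sums of other genes, so the 9 of 11 have no background share. In granule cells, the glutamatergic neurons that make up most cerebellar nuclei, NestinCre EAE 1 to 4 lay at 176, 39.7, 63.0 and 62.7 CPM, a mean of 85.3 ± 61.4 (SD, n = 4) against 5.05 ± 6.16 in fl EAE, 16.9-fold. In mature oligodendrocytes, the myelinating cells, they lay at 610, 192, 452 and 759 CPM, a mean of 503 ± 242 against 27.6 ± 50.5, 18.2-fold. In microglia they lay at 3578, 3829, 2799 and 2065 CPM, a mean of 3068 ± 799 against 273 ± 253, 11.2-fold. Astrocytes went from 38.2 ± 39.4 to 585 ± 206 CPM (15.3-fold) and oligodendrocyte progenitor cells from 26.8 ± 29.0 to 450 ± 161 (16.8-fold). Much of the fl EAE mean came from fl EAE 3: without it the ratios were 20.9 in microglia, 31.4 in astrocytes, 42.8 in granule cells and 211 in mature oligodendrocytes.

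**Figure D1:**
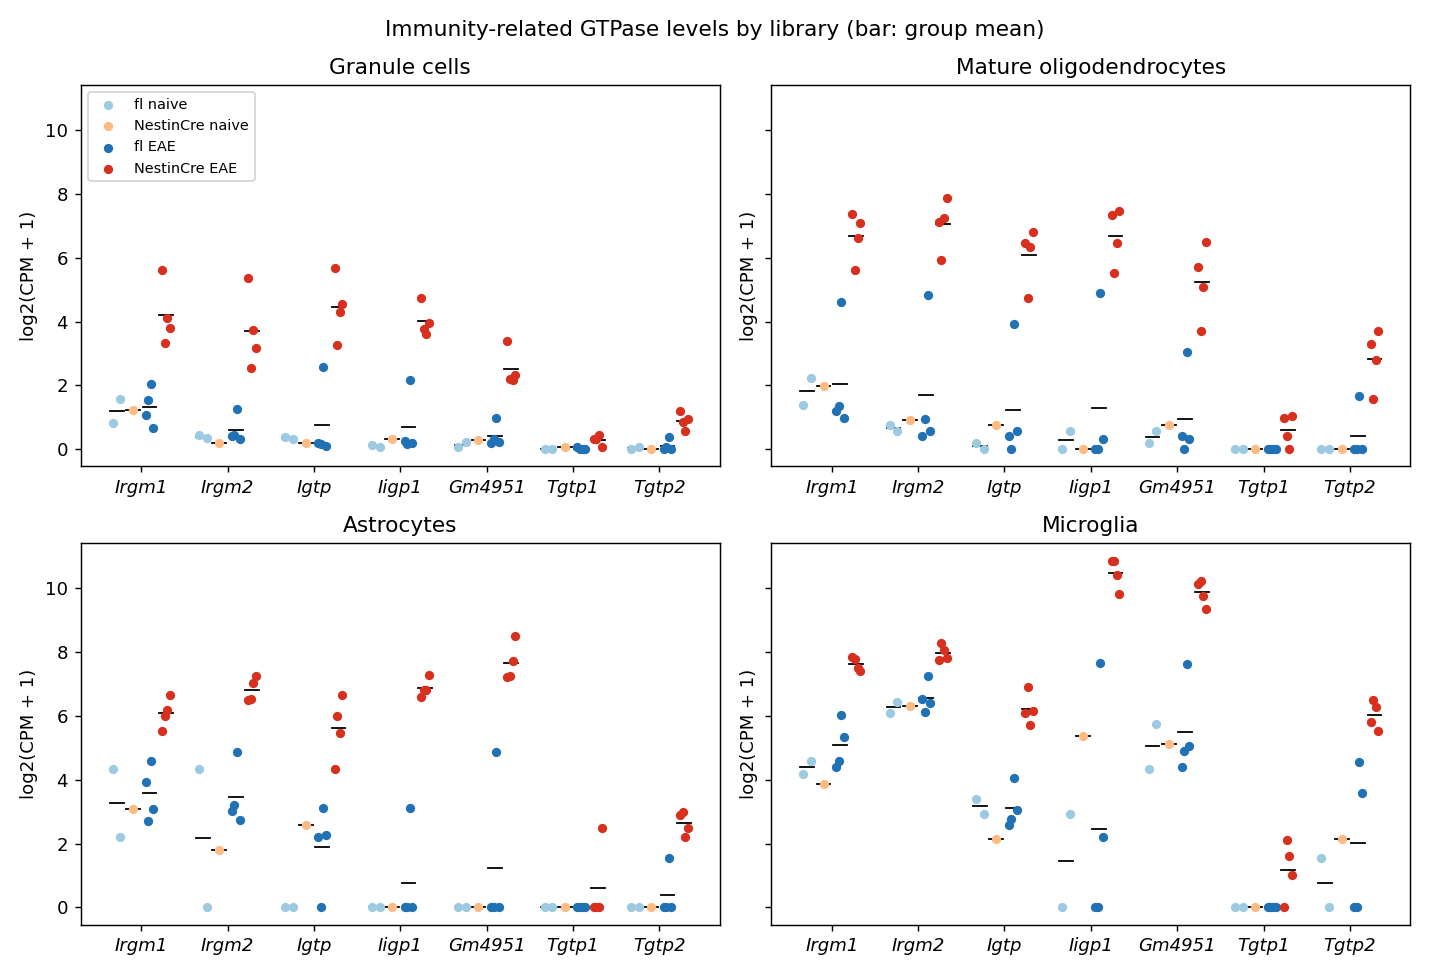
Level of each member, log2(CPM + 1), in granule cells, mature oligodendrocytes, astrocytes and microglia, with a point for each library, colours for the groups and a bar at the group mean. Iigp1 in microglia sits between 905 and 1877 CPM in NestinCre EAE, and the fl EAE point at 202 CPM is fl EAE 3.

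Across the 11 classes, 28 of the 77 member and class pairs had enough counts for a test of genotype in EAE (edgeR's quasi-likelihood test with sequencing run as covariate, Benjamini-Hochberg adjustment over all genes of the class). Of these, 21 were higher in NestinCre EAE and 0 lower at an adjusted p under 0.05. Over all genes and classes, 0.798% of tests were called higher. All 28 log2 fold changes were above 0, from 0.94 to 5.49 with a median of 3.73, while the median over all genes of a class lay between -0.02 and 0.01. A member could pass the count filter through the NestinCre EAE libraries alone. That favours large log2 fold changes above 0, so the signs and the median of the 28 are no evidence beside the calls. The 28 are not all members, and the remaining 49 pairs are described by their levels. In run 1 alone (3 against 3) 19 of the 21 calls were kept. All 21 were kept without fl EAE 3, where 33 of 36 pairs were called, but 12 of 21 were kept without fl EAE 1 and 12 of 21 without fl EAE 2. The 9 calls lost in each case were those of granule cells (4), mature oligodendrocytes (4) and molecular layer interneurons (1), and the 12 calls of microglia, astrocytes and oligodendrocyte progenitor cells were kept whichever EAE library was left out. Leaving out another library kept 18 to 20 of 21. By DESeq2 14 of the 21 were called, 4 were not and 3 had no adjusted p. Leaving out nuclei with any immune marker UMI, which drops microglia from the comparison, left 13 of 18 called. The share of all genes called is not given for these genotype refits. Their counts, here and below, therefore cannot be read against the share of the main fit.

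Counted without a model, all 4 NestinCre EAE libraries lay above all 4 fl EAE libraries for 40 of the 77 pairs. The same was true of 2.04% of all detected gene and class pairs. The 40 pairs were 6 of 7 members in granule cells, astrocytes, microglia and molecular layer interneurons, 5 in mature oligodendrocytes and in oligodendrocyte progenitor cells, 3 in inhibitory neurons, 2 in Bergmann glia and 1 in excitatory neurons. The member that failed in the first 4 of these classes was Tgtp1, which had 67 UMIs in all 11 libraries together, and Tgtp2 in molecular layer interneurons rests on 1 UMI in NestinCre EAE 4 against 1 UMI in fl EAE 4. Purkinje cells and unipolar brush cells had none.

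Among the regulators in granule cells, Irgm1 lay at 1.12, 1.93, 3.07 and 0.594 CPM in fl EAE 1 to 4 and at 48.4, 9.02, 16.4 and 12.8 CPM in NestinCre EAE 1 to 4. The groups did not overlap, and NestinCre EAE 1 was the highest library. Irgm1 rose by a log2 fold change of 3.77 (SE 0.56, adjusted p = 0.0188). In this class 1.21% of all genes were called higher. Irgm2 went from 0.340, 0.355, 1.41 and 0.232 CPM to 40.1, 4.79, 12.4 and 8.01 CPM (4.84, SE 0.75, adjusted p = 0.0206). Igtp, which held the largest mean share of family UMIs in these neurons, lay at 0.146, 0.118, 4.99 and 0.0775 CPM against 50.7, 8.70, 18.8 and 22.5 CPM. Its log2 fold change of 4.45 (SE 0.97) missed the threshold with all libraries (adjusted p = 0.0686) and passed it without fl EAE 3 (7.74, adjusted p = 0.00283).

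The effector Iigp1 in granule cells lay at 0.195, 0.118, 3.49 and 0.129 CPM in fl EAE and at 25.8, 12.5, 11.1 and 14.4 CPM in NestinCre EAE (log2 fold change 4.19, SE 0.79, adjusted p = 0.0413), and was called under 7 of its 16 alternative settings with an adjusted p. Its relative Gm4951 lay at 0.146, 0.237, 0.980 and 0.155 CPM against 9.51, 3.63, 3.47 and 4.02 CPM (3.82, SE 0.56, adjusted p = 0.0181). Neither pair of groups overlapped. Tgtp2 stayed at or under 1.28 CPM in every library and did not pass (3.45, SE 0.76, adjusted p = 0.0689), and Tgtp1 had 18 UMIs in NestinCre EAE and 1 in fl EAE. In total 4 of 6 tested members were called in this class, and all 6 without fl EAE 3 (largest adjusted p = 0.0155). None of the 4 calls was kept without fl EAE 1 (largest adjusted p = 0.130) or without fl EAE 2 (0.115), 3 were kept without NestinCre EAE 1, 2 or 4 (Iigp1 lost) and 2 without NestinCre EAE 3 (Irgm2 and Iigp1 lost).

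Immune marker UMIs moved with these values. The summed level of 16 leukocyte markers in granule cell nuclei was 19.2, 17.6, 35.0 and 18.7 CPM in fl EAE 1 to 4 and 239, 111, 149 and 39.2 CPM in NestinCre EAE 1 to 4, with none of the 16 at 0, and the share of granule nuclei with such a UMI was 3.56% to 7.07% against 44.3%, 18.2%, 25.4% and 7.74%. With those nuclei left out, log2 fold changes in granule cells were 3.74 for Irgm1 (adjusted p = 0.0207), 4.90 for Irgm2 (0.0206), 3.85 for Gm4951 (0.0207), 4.46 for Igtp (0.0761) and 4.11 for Iigp1 (0.0505). NestinCre EAE 4, the library of its group with the lowest marker sum, had a family level of 62.7 CPM, close to that of NestinCre EAE 3 (63.0 CPM). The part of immune cell RNA in the genotype difference was not tested. Nuclei in which no marker UMI was caught can still hold such RNA. Leaving out the marker-positive nuclei therefore cannot decide this, here or in the classes below.

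**Figure D2:**
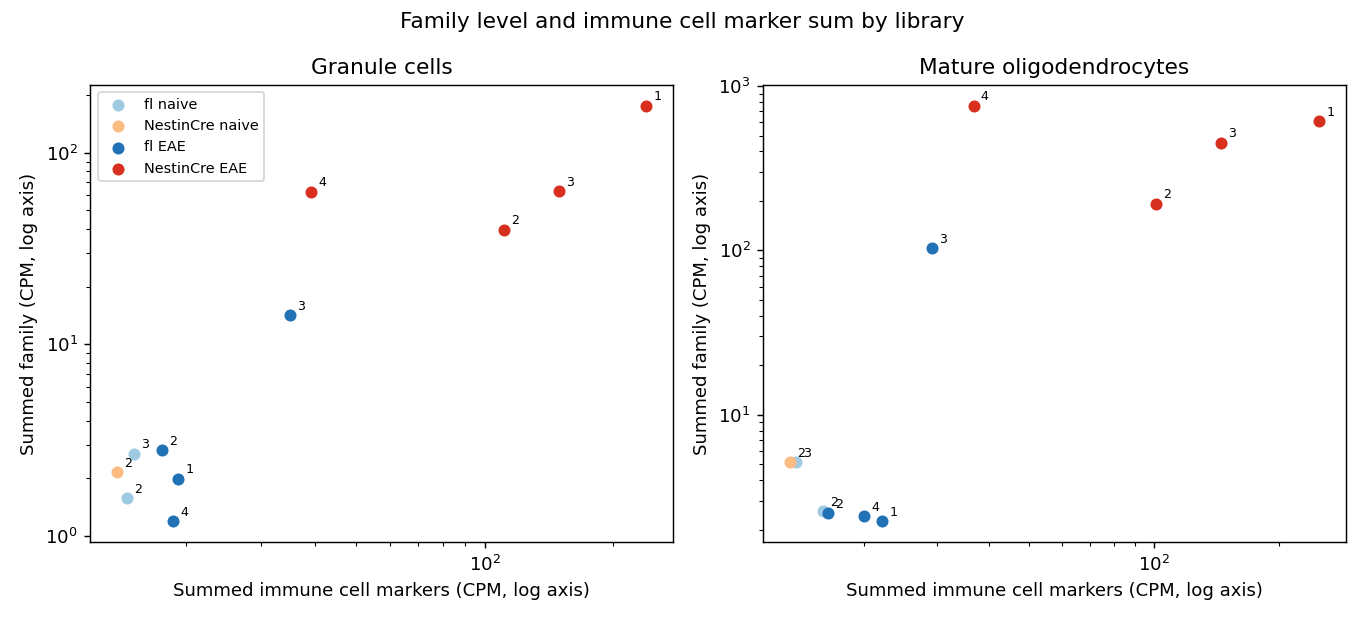
Summed family level against the summed level of 16 immune markers (both CPM, log axes) in granule cells and mature oligodendrocytes, with a numbered point for each library and colours for the groups. In mature oligodendrocytes NestinCre EAE 4 has the lowest marker sum of its group (36.7 CPM) and the highest family level (759 CPM).

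Mature oligodendrocytes gave a similar picture with Irgm2 in front. Irgm2 lay at 0.321, 0.940, 27.7 and 0.481 CPM in fl EAE 1 to 4 and at 139, 60.0, 150 and 234 CPM in NestinCre EAE 1 to 4, and fl EAE 3 was the one fl EAE library above 1 CPM. Its log2 fold change was 3.97 (SE 0.77, adjusted p = 0.0258). In this class 1.27% of all genes were called higher. Irgm1 (1.28, 1.57, 23.2 and 0.962 CPM against 163, 47.7, 96.8 and 136 CPM) rose by 3.81 (SE 0.68, adjusted p = 0.0158). Igtp (0.321, 0, 14.3 and 0.481 CPM against 86.3, 25.6, 79.5 and 110 CPM) rose by 3.94 (SE 0.73, adjusted p = 0.0192).

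Among the chromosome 18 members, Gm4951 went from 0.321, 0, 7.23 and 0.241 CPM to 51.5, 12.0, 33.0 and 89.2 CPM in oligodendrocytes (4.05, SE 0.74, adjusted p = 0.0174). Iigp1 was detected in fl EAE almost solely in fl EAE 3 (0, 0, 28.7 and 0.241 CPM) and lay at 160, 44.8, 86.6 and 177 CPM in NestinCre EAE. The groups did not overlap, yet its test missed the threshold (3.69, SE 0.85, adjusted p = 0.0677) and passed without fl EAE 3 (adjusted p = 3.23e-04). Tgtp2 lay at 0 to 2.19 CPM against 1.95 to 11.9 CPM and overlapped. Of 5 members tested, 4 were called, and all 5 without fl EAE 3 (largest adjusted p = 0.00117). None of the 4 calls was kept without fl EAE 1 (largest adjusted p = 0.0983) or without fl EAE 2 (0.0840), 2 were kept without NestinCre EAE 1 (Irgm1 and Gm4951) and 3 without NestinCre EAE 3 (Irgm2 lost). The immune marker sum was 16.3 to 29.1 CPM in fl EAE and 250, 101, 145 and 36.7 CPM in NestinCre EAE oligodendrocytes, with none of the 16 at 0 in the latter, and without nuclei carrying such a UMI Irgm2 kept a log2 fold change of 4.00 (adjusted p = 0.0180), Irgm1 of 3.77 (0.0133), Igtp of 4.00 (0.0133) and Gm4951 of 4.05 (0.0118). NestinCre EAE 4, with the lowest marker sum of its group, had the highest level of Irgm2, Igtp, Iigp1 and Gm4951. It was also the only library of its group in run 2. The part of immune cell RNA in these values was not tested.

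Microglia, the resident macrophages, which the Nestin promoter does not target, held the highest family level of the 11 tested classes. Iigp1 lay at 0, 0, 202 and 3.63 CPM in fl EAE 1 to 4 and at 1877, 1875, 1356 and 905 CPM in NestinCre EAE 1 to 4. It went from near absence in 3 of 4 fl EAE libraries to the most counted member of the family, a log2 fold change of 4.50 (SE 0.49, adjusted p = 5.31e-06), and 4.34% of all genes were called higher in this class. Gm4951 lay at 20.2, 28.9, 195 and 32.6 CPM against 1133, 1211, 864 and 653 CPM (3.55, SE 0.34, adjusted p = 2.21e-06). Tgtp2 (0, 0, 22.4 and 10.9 CPM against 55.6, 89.1, 76.2 and 45.1 CPM) rose by 2.48 (SE 0.46, adjusted p = 0.00135). The groups did not overlap for Iigp1, Gm4951 or Tgtp2.

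All 3 regulators were called in microglia as well. Igtp lay at 5.05, 5.79, 15.7 and 7.25 CPM against 67.8, 119, 51.5 and 69.8 CPM (2.90, SE 0.41, adjusted p = 1.01e-04). Irgm1 lay at 20.2, 23.2, 65.0 and 39.9 CPM against 231, 221, 181 and 168 CPM (2.25, SE 0.26, adjusted p = 9.72e-06). Irgm2, already present in naive libraries, lay at 90.9, 69.5, 152 and 83.4 CPM against 214, 310, 268 and 224 CPM, a log2 fold change of 1.27 (SE 0.21, adjusted p = 4.60e-04) and 2.56-fold in the means. All 6 tested members were called, also without fl EAE 3 (largest adjusted p = 7.99e-04). The immune marker list is also expressed by microglia (Ptprc and Lyz2 among them) and summed to 1291 to 1693 CPM in fl EAE (10 of 16 detected) and 1434 to 2027 CPM in NestinCre EAE (13 of 16), where Ly6c2, Skap1 and Themis were detected in the latter alone and Cd3e and Cd3g were at 0 in both. The 8 microglia markers summed to 4916 to 5950 CPM in fl EAE and 3708 to 4734 CPM in NestinCre EAE, without overlap, and the part of either list in these differences was not tested.

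Astrocytes and oligodendrocyte progenitor cells were sampled by few nuclei, 42 to 173 and 44 to 94 per EAE library, and still showed the difference. Gm4951 in astrocytes lay at 0, 0, 28.5 and 0 CPM in fl EAE and at 147, 153, 210 and 360 CPM in NestinCre EAE, 15 UMIs against 182. Its log2 fold change was 4.62 (SE 0.48, adjusted p = 1.13e-06). In astrocytes 0.511% of all genes were called higher. Iigp1 (0, 0, 7.59 and 0 CPM against 96.2, 112, 112 and 155 CPM) rose by 5.49 (SE 0.49, adjusted p = 9.46e-08), Irgm2 by 3.14 (SE 0.37, adjusted p = 5.03e-06) and Irgm1 by 2.48 (SE 0.40, adjusted p = 7.64e-04). All 4 tested members were called, also without fl EAE 3 (largest adjusted p = 2.42e-04). The astrocyte immune marker sum was 8.28 to 20.8 CPM in fl EAE and 31.9 to 180 CPM in NestinCre EAE, with Arg1, Cd3g, Skap1, Cd247 and Themis at 0 in the latter, and without nuclei carrying a marker UMI Gm4951 rose by 4.74 (adjusted p = 9.31e-08) and Iigp1 by 5.36 (adjusted p = 9.31e-08).

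In oligodendrocyte progenitor cells Irgm2 lay at 5.07, 0, 18.1 and 0 CPM against 107, 134, 113 and 104 CPM. It rose by 3.89 (SE 0.44, adjusted p = 3.87e-09) and Irgm1 by 3.00 (SE 0.41, adjusted p = 3.62e-07), and 0.671% of all genes were called higher in this class. Iigp1 is listed at 0 UMIs in all 4 fl EAE libraries of this class and at 78 UMIs in NestinCre EAE (150, 13.4, 53.7 and 95.2 CPM), without enough counts for the test. The marker sum was 9.07 to 31.1 CPM against 11.9 to 111 CPM, and without marker-positive nuclei the rises of Irgm2 (3.87, adjusted p = 4.71e-07) and Irgm1 (3.38, adjusted p = 2.40e-06) were of like size. Both were also called without fl EAE 3 (largest adjusted p = 6.60e-06).

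Other neurons and Bergmann glia had the lowest levels or the fewest counts. In molecular layer interneurons, the inhibitory cells of the cerebellar cortex, Igtp lay at 0, 0, 2.01 and 0 CPM against 19.7, 7.53, 8.85 and 11.7 CPM and rose by 4.55 (SE 0.68, adjusted p = 0.0172), where 0.0966% of genes were called higher. It was not called without fl EAE 1 (adjusted p = 0.0927), fl EAE 2 (0.0883), fl EAE 4 (0.0580) or NestinCre EAE 4 (0.0575). It was called without fl EAE 3 (adjusted p = 0.0164) and without nuclei carrying an immune marker UMI (4.48, adjusted p = 0.0157), and the marker sum of this class was 12.9 to 20.1 CPM in fl EAE (12 of 16 detected) and 27.5 to 132 CPM in NestinCre EAE (15 of 16). In excitatory neurons other than granule and unipolar brush cells, Irgm1 (1.82, SE 0.47, adjusted p = 0.375), Gm4951 (1.97, SE 0.58, adjusted p = 0.672) and Iigp1 (2.59, SE 0.57, adjusted p = 0.219) did not pass, with Iigp1 at 0, 0, 2.31 and 0.193 CPM against 5.32, 4.42, 4.81 and 3.69 CPM. Without fl EAE 3, Gm4951 (adjusted p = 0.0120) and Iigp1 (adjusted p = 9.03e-04) did. The marker sum of excitatory neurons was 31.6 to 47.7 CPM against 54.5 to 90.0 CPM. In inhibitory neurons, with 29.8 to 48.2 CPM against 45.7 to 95.1 CPM of the markers, the one tested member, Irgm1, did not pass (0.94, SE 0.43, adjusted p = 0.973). Bergmann glia had no member with enough counts. Their family level was 1636, 93.0, 378 and 145 CPM in NestinCre EAE against 0 to 35.0 CPM in fl EAE, and NestinCre EAE 1, with 26 Bergmann nuclei, had the highest level. Their marker sum was 2.22 to 50.0 CPM in fl EAE and 23.0 to 169 CPM in NestinCre EAE. The part of the markers in these neuronal and Bergmann values was not tested.

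**Figure D3:**
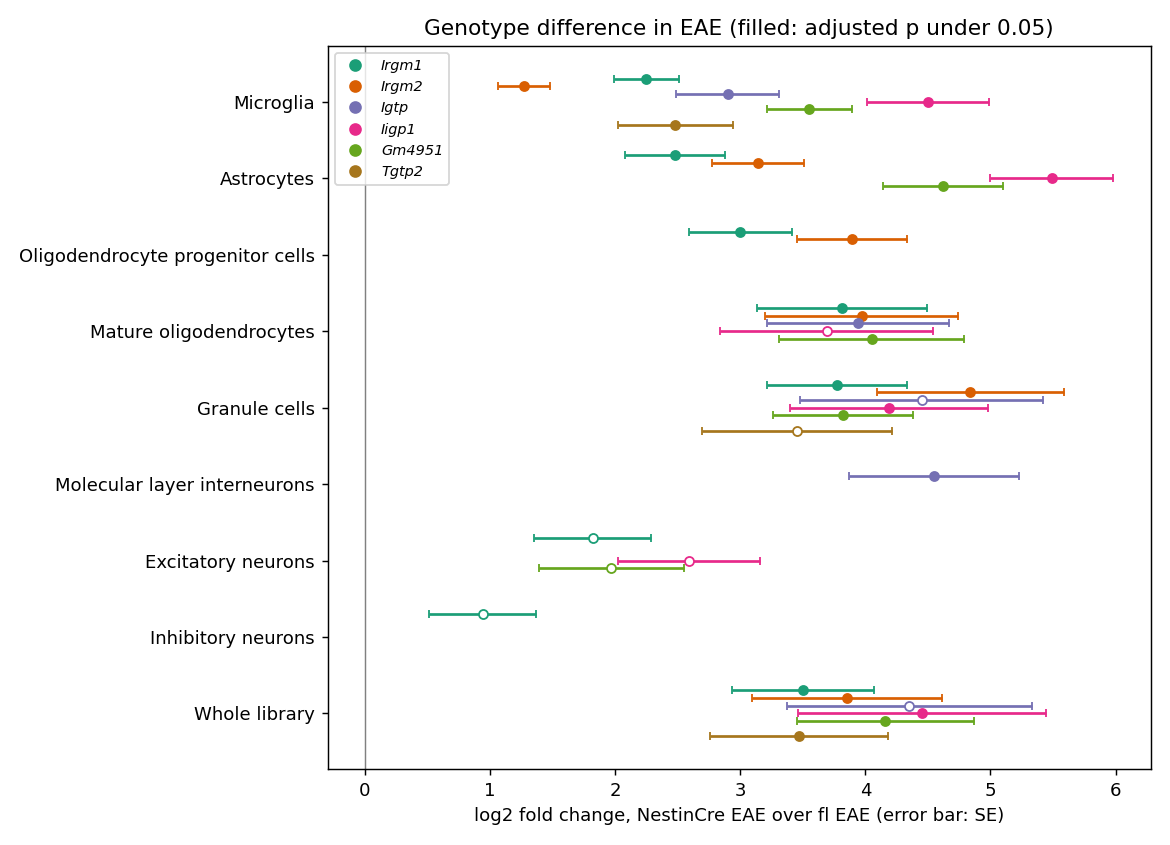
Log2 fold change of each tested member, NestinCre EAE against fl EAE, by cell class and in whole libraries (points from edgeR's quasi-likelihood fit, bars of the SE either way, filled where the adjusted p is under 0.05). All 28 class points and 6 whole-library points lie above 0, and the class points run from 0.94 to 5.49. The count filter favours such points, since a member could pass it through NestinCre EAE alone.

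Summed over all kept nuclei of a library, where more cells of a type and more RNA per cell cannot be told apart, 7 of 7 members were higher in every NestinCre EAE library than in every fl EAE library, as were 4.88% of all detected genes. Irgm1 lay at 1.88, 2.25, 6.87 and 0.998 CPM against 53.3, 15.6, 26.2 and 32.6 CPM, and Iigp1 at 0.365, 0.0785, 9.52 and 0.361 CPM against 71.0, 35.4, 47.9 and 54.1 CPM. Of 6 tested members 5 were called higher, among 3.19% of all genes: Irgm1 (3.50, adjusted p = 0.0134), Gm4951 (4.16, adjusted p = 0.0162), Irgm2 (3.85, adjusted p = 0.0292), Tgtp2 (3.47, adjusted p = 0.0324) and Iigp1 (4.45, adjusted p = 0.0488). Igtp missed the threshold (4.35, adjusted p = 0.0530) and passed it with the replicate number as a block (5.07, adjusted p = 0.0329). The count depended on single libraries, from 1 without fl EAE 1, without NestinCre EAE 1 or without NestinCre EAE 3 to 7 without fl EAE 3, and was 3 in run 1 alone. It was also 3 without fl EAE 2, without fl EAE 4 or without NestinCre EAE 4. These counts cover every member that a refit could test, so they can include a member outside the 6. Without fl EAE 1 none of the 5 calls named above was kept. The marker sum of whole libraries was 26.3 to 52.1 CPM in fl EAE and 75.0 to 306 CPM in NestinCre EAE, and without nuclei carrying a marker UMI 4 of 6 members were called.

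Whether the genotype difference of a member itself differed between classes was tested against granule cells in the same libraries. Irgm2 differed: its log2 fold change in microglia minus that in granule cells was -3.10 (SE 0.45, adjusted p = 1.28e-06), and 1.41% of genes were called lower in that comparison. It was called under all 9 alternative settings run for it, with values from -3.67 to -2.39. For the other 5 tested members the difference between microglia and granule cells ran from -1.11 (Irgm1, SE 0.40, adjusted p = 0.167) to 0.89 (Iigp1, SE 0.36, adjusted p = 0.253) and did not pass. Neither mature oligodendrocytes nor astrocytes differed detectably from granule cells for any of 6 members. The largest values there were Iigp1 in astrocytes (1.96, SE 0.79, adjusted p = 0.670) and Irgm2 in astrocytes (-1.22, SE 0.51, adjusted p = 0.681), and 7 of the 18 differences had an unadjusted p under 0.05. The called count for microglia was 2 without fl EAE 3, 2 without NestinCre EAE 2 and 3 without NestinCre EAE 4.

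Among the 11 tested classes, mean levels in NestinCre EAE were ordered as microglia, other glia and neurons. Each of the 6 members other than Tgtp1 had its highest mean of these classes in microglia. Untested classes with few nuclei were higher for some members, such as neutrophils for Irgm1 (242 ± 163 CPM, n = 4) and border-associated macrophages for Gm4951. For Irgm1 (200 ± 30.4 CPM against 111 ± 50.2 in mature oligodendrocytes), Iigp1 (1503 ± 468 against 177 ± 348 in Bergmann glia), Gm4951 and Tgtp2 the microglia libraries did not overlap those of the next class. For Irgm2 (254 ± 44.3 against 146 ± 71.2 in mature oligodendrocytes) and Igtp (77.0 ± 29.1 against 75.4 ± 35.7) they did, and Igtp was higher in microglia in 1 of 4 libraries. Among the remaining glia the order of neighbours was within the spread of the libraries. Irgm2 then dropped from 115 ± 13.6 CPM in oligodendrocyte progenitor cells to 16.3 ± 16.1 CPM in granule cells without overlap, and for the 5 members outside the Tgtp pair every neuronal class had a lower mean than every glial class. The Bergmann means of Iigp1 and Gm4951 rest on NestinCre EAE 1, with 26 nuclei. Iigp1 lay there at 699 CPM against 0, 9.22 and 0 CPM in NestinCre EAE 2 to 4, and Gm4951 at 440 against 11.6, 9.22 and 0 CPM. In NestinCre EAE 2 to 4 Iigp1 was higher in granule cells than in Bergmann glia.

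By UMIs, Iigp1 led in microglia of NestinCre EAE, with 48.4% of the family's UMIs against 31.4% for Gm4951. These 3' counts need not scale with gene length, so values per kilobase do not make members comparable. Per kilobase of exon the same microglia were led by Gm4951 (261 CPM per kb) and Iigp1 (236). Irgm2 (67.8), Irgm1 (31.5), Tgtp2 (22.6) and Igtp (16.9) followed. Mature oligodendrocytes were led by Irgm2 (39.0 CPM per kb), ahead of Iigp1 (18.4), Irgm1 (17.5), Igtp (16.5) and Gm4951 (12.6). Granule cells were led by Igtp (5.52 CPM per kb), with Irgm2 at 4.36, Irgm1 at 3.41 and Iigp1 at 2.51. Intronic reads were counted, and per kilobase of gene body the order in microglia was Iigp1 (79.0), Gm4951 (26.5) and Irgm1 (19.3), and in oligodendrocytes Irgm1 (10.7) and Igtp (8.79), so the choice of length sets which member leads in both.

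**Figure D4:**
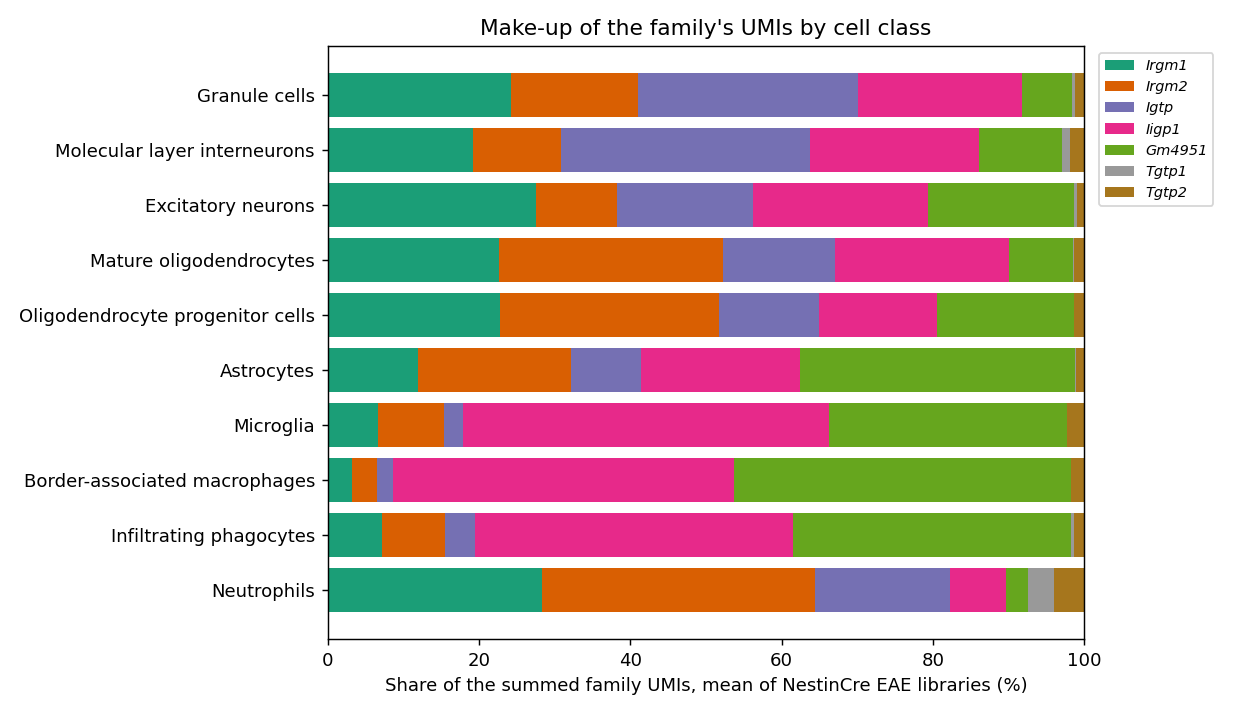
Share of the family's UMIs held by each member in NestinCre EAE, by cell class (stacked bars, percent, mean over libraries, a colour for each member). Iigp1 and Gm4951 hold most of the UMIs in microglia (48.4% and 31.4%), and Igtp and Irgm1 lead in granule cells (29.1% and 24.2%).

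The make-up of the family thus differed between classes, as the shares of its UMIs show. In NestinCre EAE microglia Iigp1 held 48.4% ± 3.55 (SD, n = 4) of the family's UMIs and Igtp 2.55% ± 0.802. In granule cells Igtp held 29.1% ± 5.71, Irgm1 24.2% ± 3.18 and Iigp1 21.7% ± 7.40. In astrocytes Gm4951 held 36.4% ± 3.97, against 8.44% ± 2.39 in mature oligodendrocytes, where Irgm2 led with 29.5% ± 4.59. These are descriptions of the same 4 libraries in each class. Border-associated macrophages and infiltrating phagocytes had profiles with Iigp1 and Gm4951 in front (45.0% and 44.6%, and 42.0% and 36.8%), whereas in neutrophils Irgm2 (36.0%) and Irgm1 (28.4%) led and Iigp1 held 7.33%.

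Ratios of members within a class do not scale with how many nuclei or UMIs a class had, but they are uncertain where UMIs are few. In molecular layer interneurons of NestinCre EAE, Igtp per Iigp1 ran from 0.875 to 3.50, on 82 Iigp1 UMIs. Igtp UMIs per Iigp1 UMI were 1.48 ± 0.548 in granule cells (0.695 to 1.96 over 4 libraries), 1.76 ± 1.18 in molecular layer interneurons, 0.664 ± 0.173 in mature oligodendrocytes, 0.449 ± 0.198 in astrocytes, 0.0536 ± 0.0200 in microglia (0.0361 to 0.0771) and 0.0965 ± 0.0651 in infiltrating phagocytes. Granule cell and microglia libraries did not overlap. The part of free RNA in these levels was not tested. Gm4951 UMIs per Iigp1 UMI were 1.78 ± 0.420 in astrocytes, 0.652 ± 0.0495 in microglia, 0.369 ± 0.102 in mature oligodendrocytes and 0.313 ± 0.0398 in granule cells, and the astrocyte libraries (1.38 to 2.32) lay above all libraries of the other classes just named. Neutrophils, with few UMIs in 3 libraries, had 3.09 ± 2.11 Igtp per Iigp1 UMI.

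Family UMIs were spread over few nuclei of neurons and most nuclei of microglia. After thinning each nucleus to 1000 UMIs, the share with at least 1 member UMI in NestinCre EAE 1 to 4 was 83.2%, 80.7%, 68.8% and 71.0% in microglia, against a mean of 16.6% ± 8.92 (SD, n = 4) in fl EAE. Mature oligodendrocytes had 31.1%, 11.3%, 22.2% and 35.9%, against 1.44% ± 2.45 (0.212%, 0.284%, 5.12% and 0.153% in fl EAE 1 to 4). Granule cells had 15.7%, 3.90%, 5.79% and 6.12%, against 0.421% ± 0.455 (0.235%, 0.215%, 1.10% and 0.133% in fl EAE 1 to 4). Much of both fl EAE means thus came from fl EAE 3. Astrocytes had a mean of 30.1% ± 13.4, against 3.07% ± 2.97. Without thinning, the NestinCre EAE and fl EAE means were 86.3% and 29.4% for microglia, 34.6% and 2.52% for mature oligodendrocytes, 15.2% and 1.07% for granule cells and 44.9% and 7.08% for astrocytes. For NestinCre EAE 2 the exact 95% binomial interval, which covers counting error only, was 3.53% to 4.31% in granule cells. No class known to lack these genes was available as a background. At the same depth of 1000 UMIs Purkinje cells had 1 positive nucleus of 67 in NestinCre EAE (mean share 1.19% ± 2.38, and 12.8% ± 12.1 without thinning). Inhibitory neurons, with 969 nuclei, had 2.01% ± 0.875, and 0.747% ± 0.535 in fl EAE (7.01% to 26.5% and 0.629% to 6.89% over libraries without thinning). Median depth in NestinCre EAE 1 was 2502 UMIs in microglia, 2427 in granule cells and 11280 in inhibitory neurons.

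**Figure D5:**
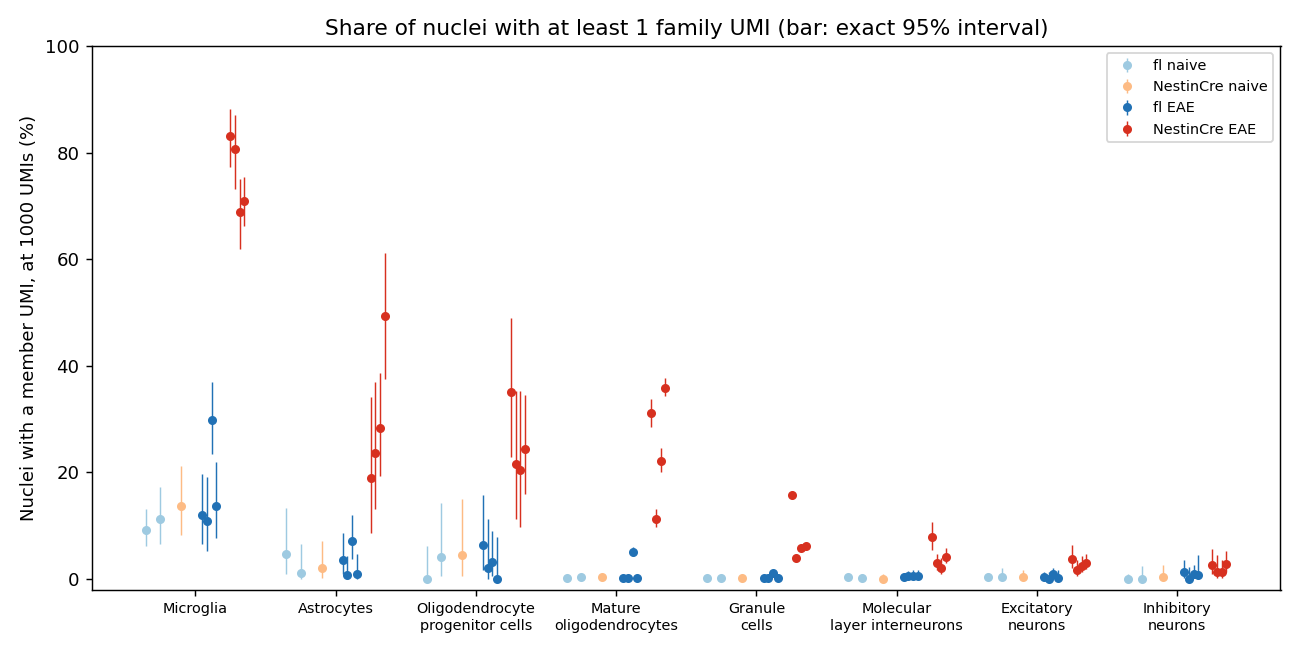
Share of nuclei with at least 1 family UMI after thinning to 1000 UMIs (percent), by class, with a point for each library, colours for the groups and exact 95% binomial intervals. NestinCre EAE libraries lie at 68.8% to 83.2% in microglia and at 3.90% to 15.7% in granule cells, above every fl EAE library of the same class.

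The share of positive nuclei that held a second member differed widely between classes. At a fixed depth this share rises with the family level of a class. NestinCre EAE 1 had 1607 family UMIs in 8616 granule nuclei and 602 in 196 microglia. The shares are therefore no measure of co-expression by cell type. Among positive nuclei of NestinCre EAE 1 to 4 at 1000 UMIs, 36.0%, 28.8%, 38.8% and 38.7% held UMIs of at least 2 members in mature oligodendrocytes and 63.8%, 69.7%, 59.6% and 46.6% in microglia, against 11.1%, 1.05%, 5.52% and 3.13% in granule cells. Bergmann glia, with 4 to 18 positive nuclei a library, had 33.3%, 0%, 10.0% and 0%. In pooled NestinCre EAE oligodendrocytes, Irgm2 was detected in 35.9% of nuclei with Irgm1 and in 12.0% of nuclei without it. Next to Igtp the shares were 35.4% and 12.5%, but that pair may share reads. In granule cells Irgm1 was found in 4.72% of nuclei with Igtp and 2.00% of those without, both low. The libraries differ in level, so part of any pooled co-detection comes from the library a nucleus belongs to, and these shares are given without a test.

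The myeloid and lymphoid classes had too few nuclei for a test. Border-associated macrophages, which line the meninges and vessels, held Gm4951 in every group: 805 ± 137 CPM in fl naive (n = 2, 19 UMIs), 545 CPM in NestinCre naive, 842 ± 524 CPM in fl EAE and 1828 ± 712 CPM in NestinCre EAE (n = 4). These values rest on 2 to 10 nuclei per library. Infiltrating phagocytes of NestinCre EAE 1 to 3 had family levels of 2580, 2580 and 2679 CPM, below the microglia of the same libraries in each. Neutrophils had 1046, 1205 and 1177 CPM in NestinCre EAE 1 to 3, from 132, 52 and 61 UMIs. T or NK cells had 288 to 679 CPM from 15 to 37 nuclei per NestinCre EAE library.

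The effect of EAE itself was tested in a model of all 11 libraries, in which 45 of 77 pairs could be tested and run 2 alone holds both EAE and naive libraries. No pair was called for EAE against naive in Il12rb2fl/fl mice (edgeR's quasi-likelihood test, 0 of 45, with 1 at an unadjusted p under 0.05, and 1 by DESeq2), with 32 of 45 log2 fold changes above 0, where 0.122% of all gene and class pairs were called. In NestinCre/+Il12rb2fl/fl mice 0 of 45 were called as well (11 at an unadjusted p under 0.05, 2 by DESeq2), among 0.0546% of all pairs, although 43 of 45 log2 fold changes were above 0. Run and immunization cannot be told apart for most of these libraries: without the run term 13 of 45 were called higher, where 0.245% of all pairs were. Between the genotypes without immunization 0 of 45 were called, none of them at an unadjusted p under 0.05 and 0 by DESeq2, among 0.00448% of all pairs, with a single NestinCre naive library. The interaction of genotype and EAE was called for 0 of 45 pairs (10 at an unadjusted p under 0.05, 0 by DESeq2), among 0.00448% of all pairs, and 43 of 45 log2 values were above 0. It too rests on the single NestinCre naive library, so the test does not settle whether the genotype difference depends on immunization. A pair could pass the count filter through the NestinCre EAE libraries alone, which favours values above 0 in both counts of 43. The pairs also share libraries, so these signs are no evidence beside the calls.

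The neighbouring interferon pathway is given from lists whose genes were chosen with earlier results of these data known. Test values here and in the next paragraph come from the fit with all EAE libraries. They are given without the left-out libraries and the immune marker checks shown for the members. The ligand Ifng had 22 UMIs in all, in NestinCre EAE 1 to 4 with 1, 7, 11 and 3, and 0 in the other 7 libraries, which allows up to 3 UMIs each. Of the 22, 15 were in granule nuclei, the class with most nuclei, and 2 each in T or NK cells and microglia. The receptor genes Ifngr1 (0.23, SE 0.14, adjusted p = 0.761 in granule cells) and Ifngr2 (-0.07, SE 0.12, adjusted p = 0.954) were called in no class where they could be tested. Irf1, a factor that binds the GAAA repeats, rose in granule cells (4.17, SE 0.63, adjusted p = 0.0192), mature oligodendrocytes (3.53, adjusted p = 0.00954) and microglia (1.80, adjusted p = 7.01e-04). Over the 15 genes of the interferon-gamma ligand, receptor and signalling list, 4 of 14 tested were higher in granule cells, 6 of 12 in mature oligodendrocytes and 5 of 14 in microglia, and 0 were lower. Over all genes of these classes, 1.21%, 1.27% and 4.34% were called higher, and the list counts that follow are to be read against the same shares.

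Of the guanylate-binding proteins, the larger interferon-inducible GTPases that cooperate with IRGs, 6 of 7 tested rose in granule cells (1.21% of all genes; median log2 fold change 3.76 against -0.01 over all genes), 4 of 5 in mature oligodendrocytes (1.27%; median 4.32) and 7 of 7 in microglia (4.34%; median 2.82). Examples were Gbp6 in granule cells (4.84, adjusted p = 0.0414), Gbp4 in mature oligodendrocytes (4.70, adjusted p = 0.00945) and Gbp8 in microglia (4.00, adjusted p = 3.35e-08). Of the other IRG genes, 11 of 14 listed were in the tables. Ifi47 rose in granule cells (3.72, SE 0.66, adjusted p = 0.0328; 1 of 5 tested) and Gm4841, F830016B08Rik and Gm12185 were among the 4 of 6 that rose in microglia (2.87, 2.81 and 1.00). Type I interferon-stimulated genes rose for 7 of 16 tested in granule cells, 13 of 14 in mature oligodendrocytes and 9 of 11 in microglia, with Oasl2 called in all 3 and in astrocytes (5.16, adjusted p = 1.13e-06). None of the 12 genes of the autophagy conjugation machinery, which IRGM proteins are known to act with, was called in a class where it could be tested (median -0.02 over 12 tested in granule cells). Few or none could be tested in Bergmann glia (0), unipolar brush cells (1) and oligodendrocyte progenitor cells (4). The genes whose level over 121 library and class points was most like that of the family were Nlrc5 (Pearson r = 0.900), Gbp7 (0.886), H2-K1 (0.880), Tap1 (0.867) and Psmb9 (0.866), a description over points that share libraries.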

How the data were processed

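Nuclei were profiled in 11 libraries by 10x Genomics 3' sequencing. The authors made the deposited counts (raw UMIs per gene and barcode) with Cell Ranger including intronic reads on GRCm39. The submitters' notes name version 6.0.2, and file headers differ between runs. Counts were not normalized by the authors, and depth was 40761007 to 86063464 UMIs per library.

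Nuclei with at least 200 (run 1) or 500 genes (runs 2 and 3) and at most 5% mitochondrial UMIs were kept, putative doublets were removed at an expected 0.8% per 1000 barcodes, and clusters (3000 variable genes, 40 components) were named where at least 3 markers reached 20 CPM and 2-fold. UMIs were summed per library and class and tested with edgeR 4.0.16 (quasi-likelihood, run as covariate, Benjamini-Hochberg over all genes of a class; R 4.3.3) in classes with at least 10 nuclei per EAE library. DESeq2 1.42.0 was an alternative. Class differences came from an edgeR fit of both classes with library as a block. Clustering used igraph 0.11.9, and scipy 1.17.1 gave the intervals (Python 3.11.15). The tests were tried on simulated data. Shares were computed after thinning to 1000 UMIs, and their intervals cover counting error only.

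Same-numbered EAE libraries 1 to 3 deviated together in whole-library sums (r = 0.141, 0.543 and 0.522 for the pairs), a pairing that comes from the labels' replicate numbers, and in no class did all 3 pairs exceed 0.1. The members and the gene lists were chosen with earlier results of these data known. Text names all members, Irf1, Ifng, Ifngr1 and Ifngr2, and examples from the up to 3 called genes per list and class with the largest change, and the 5 genes most like the family. Classes with fewer nuclei were described without a test. Alternatives covered tools, size factors, filters, run, replicate block, doublets, depth and each library left out. Some genes that the rule or the lists hold are not reported here.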

Additional observations from a re-analysis of the deposited data

Results flagged for a closer look

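Of 68 groups of 4 libraries examined, 25 held a library far from the other 3 by Dixon's criterion, and in 23 of them it was fl EAE 3. The groups reuse the same libraries and some hold values at or near 0. The 23 are therefore not independent, and no chance rate applies to them. In whole libraries fl EAE 3 lay at 0.810 CPM for Tgtp2 (next library 0.103), 5.10 for Igtp (0.196), 7.16 for Irgm2 (0.842), 5.05 for Gm4951 (0.757) and 9.52 for Iigp1 (0.365). In mature oligodendrocytes it lay at 23.2 CPM for Irgm1 (next 1.57), 14.3 for Igtp (0.481), 27.7 for Irgm2 (0.940), 7.23 for Gm4951 (0.321) and 28.7 for Iigp1 (0.241). In granule cells the values were 0.298 CPM for Tgtp2 (next 0.0394), 4.99 for Igtp (0.146), 1.41 for Irgm2 (0.355), 0.980 for Gm4951 (0.237) and 3.49 for Iigp1 (0.195). Microglia of fl EAE 3 had 195 CPM of Gm4951 (next 32.6) and 202 of Iigp1 (3.63), and its astrocytes 28.5 CPM of Irgm2 (8.28), 28.5 of Gm4951 (0) and 7.59 of Iigp1 (0). Excitatory neurons had 2.66 CPM of Gm4951 (0.387) and 2.31 of Iigp1 (0.193), and molecular layer interneurons 2.01 CPM of Igtp (0). The immune marker sum of fl EAE 3 was also the highest of its group in granule cells (35.0 CPM) and mature oligodendrocytes (29.1 CPM), and its part in these values was not tested.

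In NestinCre EAE, library 1 stood apart for Gm4951 in granule cells (9.51 CPM, next 4.02), and library 2 was low for Tgtp2 in whole libraries (1.90 CPM, next 3.07).

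The genotype difference of Irgm2 differed between classes by a test of the difference itself, with -3.10 on the log2 scale in microglia relative to granule cells. Irgm2 was at 67.5 to 85.7 CPM in microglia of naive libraries and at 0.146 to 0.355 CPM in their granule cells.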

How the results depend on the processing

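For genotype in EAE, no log2 fold change of the 28 class pairs and 6 whole-library members tested reversed under an alternative with an adjusted p: 469 values kept their side of the threshold, 24 gained and 68 lost significance. The count of class calls, 21, became 45 with no filter beyond 1 count, 13 (of 18 pairs tested) without nuclei carrying an immune marker UMI and 16 to 33 when 1 library was left out, where 28 to 37 pairs could be tested. Of the 21 calls themselves, 12 to 21 were kept with 1 library left out, and 13 of the 14 that could be tested without immune-marker nuclei. The count of whole-library calls, 5, was 3 in run 1 alone, 3 with nuclei up to 6000 UMIs and 1 to 7 when 1 library was left out. Such counts can include a member that the main fit did not test. They do not give how many of the 5 calls were kept, and without fl EAE 1 none was. The 0 calls of EAE against naive became 1 (DESeq2) and 1 (no filter) in Il12rb2fl/fl, staying 0 with 1 library left out, and in NestinCre/+Il12rb2fl/fl 2 (DESeq2), 13 (no run term), 3 (no filter) and 0 to 1 with 1 library left out. The interaction gave 2 calls with no filter and 0 to 1 with 1 library left out, and the microglia difference 1 to 3. With the replicate number as a block in place of run, 17 of 28 class pairs and 6 of 6 whole-library members were called, and granule cell Irgm1 (adjusted p = 0.0564), Gm4951 (0.0564) and Iigp1 (0.0899) and interneuron Igtp (0.0765) were not. The numbers pair libraries in whole-library sums and not in classes. Unthinned, shares with a member UMI in NestinCre EAE were 15.2% in granule cells, 86.3% in microglia and 44.9% in astrocytes. The causes were not tested. Inhibitory neurons, Purkinje cells and unipolar brush cells were not run at up to 6000 UMIs, nor the last 2 classes without immune-marker nuclei. Few UMIs limit Tgtp1, with 67 in all, and the members of Purkinje and unipolar brush cells. How reads of the near-identical copies Tgtp1 and Tgtp2 were assigned may also lower their counts, which was not tested.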
